A study of Mus musculus with 4 samples.

Results

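The genes described here are 10 mouse genes of neutrophil granules and cytosol, chosen by symbol from the 24015 symbols in the count tables. The 4 primary genes were Mpo, Prtn3, Ctsg and Elane, and the 6 later genes were Ngp, Ltf, Camp, Lcn2, S100a8 and S100a9. RNA-seq counts were available for 4 libraries of hematopoietic stem and progenitor cells (HSPC) isolated by flow sorting, 2 from caNIK mice and 2 from control mice. The caNIK mice carried a NIK transgene at Rosa whose product is resistant to TRAF3, the adaptor that drives NIK degradation. A loxP-flanked stop kept it silent until Vav-iCre, a Cre line active across blood cells, cut the stop out. The labels call the other group only control, and do not say whether those mice carried Cre or the transgene. Sort markers, tissue, age, sex and any pooling of animals were not given in the sources used here.

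Neutrophil granules are filled in sequence as the cell matures. Promyelocytes make the primary (azurophil) granules, which hold myeloperoxidase and the serine proteases proteinase 3, cathepsin G and neutrophil elastase. Myelocytes and later stages make the specific granules, with lactoferrin, cathelicidin and lipocalin 2. S100a8 and S100a9 do not encode granule proteins: they encode the 2 chains of calprotectin, a calcium- and zinc-binding complex of the cytosol that builds up in the same maturing cells. Primary granule transcripts are abundant in granulocyte-monocyte progenitors, whereas the later genes are usually low in sorted progenitors.

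The upstream sequence of the genes was read from RefSeq promoters of GRCm38.p6, in which all 10 members were found. That build differs from mm9, the build named in the submitters' processing notes. The 250 bases before each start were searched on both strands. The short ETS core GGAAGT, the kind of element bound by PU.1, stood in 4 of 4 primary genes and 2 of 6 later genes (S100a8 and S100a9), against 19.7% of 32851 distinct upstream windows in the table. In each primary gene it lay on the strand of the gene. The following 60-base stretches show these matches in capitals, because this was the searched element that all primary genes held.
Mpo, chr11:87793535-87793594, plus strand: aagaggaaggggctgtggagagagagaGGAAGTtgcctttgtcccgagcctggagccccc
Prtn3, chr10:79879547-79879606, plus strand: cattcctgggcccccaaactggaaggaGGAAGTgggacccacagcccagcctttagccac
Ctsg, chr14:56102747-56102806, minus strand: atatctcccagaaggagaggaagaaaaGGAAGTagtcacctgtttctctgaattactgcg
Elane, chr10:79886202-79886261, plus strand: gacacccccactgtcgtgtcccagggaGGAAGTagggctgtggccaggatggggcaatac
The first base of the match lay 222, 93, 205 and 83 bases before the start of Mpo, Prtn3, Ctsg and Elane.

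A fixed form of the C/EBP pattern, TTNNGNAAT, was found in 0 of 4 primary genes and in 3 of 6 later genes, against 10.2% of all windows. Looser forms were not searched, so these counts hold for this form only. The Elane stretch above holds TGGGGCAAT, which differs from it at a single base. The matches in the later genes are in capitals in the stretches below, which are shown as their counterpart.
Ngp, chr9:110419642-110419701, plus strand: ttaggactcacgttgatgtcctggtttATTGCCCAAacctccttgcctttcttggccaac
Ltf, chr9:111019190-111019249, plus strand: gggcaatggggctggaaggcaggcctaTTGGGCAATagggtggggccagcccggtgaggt
S100a9, chr3:90695820-90695879, minus strand: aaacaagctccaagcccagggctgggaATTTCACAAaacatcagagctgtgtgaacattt
In Ngp and S100a9 the pattern lay on the strand opposite to the gene. TGTGGT, a RUNX element, occurred in Ctsg and S100a9 (14.0% of windows). A loose NF-kB pattern (3 G, any 5 bases, 2 C) occurred in 2 primary genes (Mpo and Prtn3) and 2 later genes (Ltf and Lcn2), against 45.8% of windows, and the matches in Ltf overlapped each other. A narrower form (3 G, any 2 bases, 3 T, 2 C) occurred in 0 of the members and in 1.41% of windows. TATAAA was found in Ctsg and S100a8 (12.4% of windows) and CATAAA in Ngp and Lcn2 (10.8%). These matches were not alike in place. TATAAA began 237 bases before the start of Ctsg, on the opposite strand, and 30 bases before S100a8, on the strand of the gene. CATAAA began 30 bases before Ngp, on the opposite strand, and 60 bases before Lcn2, on the strand of the gene. The elements were chosen after the sequences had been seen, and a match describes letters, not binding.

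In caNIK HSPC, transcripts of Mpo, Prtn3 and Elane were lower than in control HSPC, and all 6 later transcripts were higher. Of the 4 primary genes, 3 were lower and 0 higher, with 1 not past the threshold. Of the 6 later genes, 6 were higher and 0 lower. The threshold was an adjusted p under 0.05 in edgeR's quasi-likelihood test over all 14191 tested genes, and all 10 members passed the filter on low counts (n = 2 libraries a group throughout). In that test 22% of all tested genes passed, 8.21% as lower and 13.8% as higher in caNIK. The caNIK and control libraries did not overlap in any of the 10 genes: 4 of 4 primary genes lay wholly lower and 6 of 6 later genes wholly higher. Such separation alone was common, since 31.6% of tested genes lay wholly lower and 33.3% wholly higher in caNIK. The median log2 fold change was -3.40 over the primary genes and 3.01 over the later genes, against 0.00 over all tested genes.

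**Figure D1:**
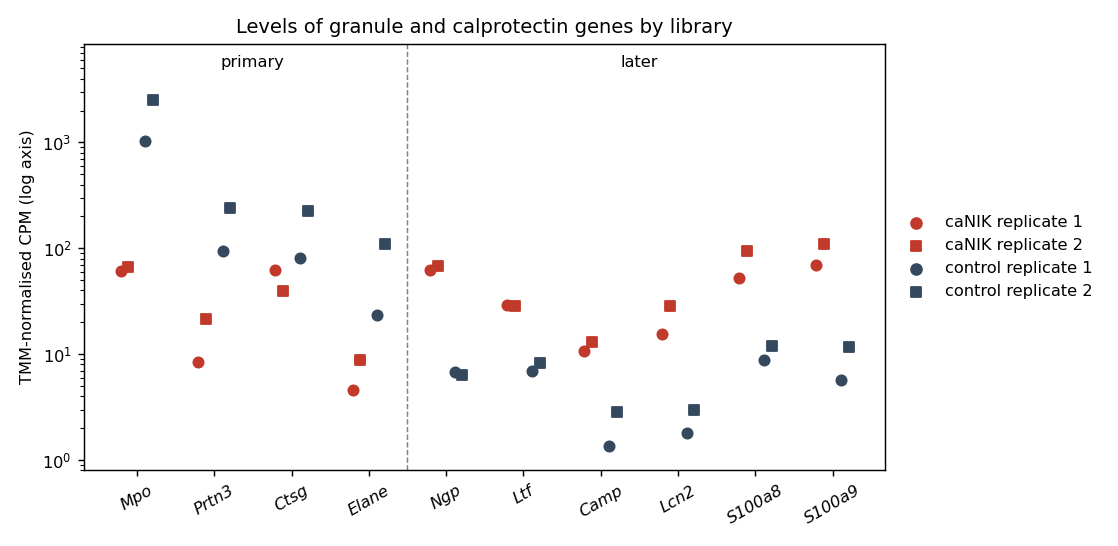
TMM-normalised CPM (vertical log axis) of the 4 primary and 6 later genes in each library, with caNIK libraries left of control libraries for each gene, circles for replicate 1 and squares for replicate 2. Every primary gene lies lower and every later gene higher in both caNIK libraries, and Ctsg shows the smallest gap, with 61.9 and 39.7 CPM in caNIK against 81.6 and 226 CPM in control.

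Mpo encodes myeloperoxidase, the heme enzyme that makes hypochlorous acid. It was counted 1141 and 1369 times in caNIK replicates 1 and 2, against 20007 and 58760 times in control replicates 1 and 2. These counts correspond to 61.3 and 66.0 CPM in caNIK and 1038 and 2503 CPM in control (CPM, the count scaled to the library size with TMM factors). The caNIK libraries were close to each other, whereas control replicate 2 stood 2.41 times above control replicate 1. Even so, the lower control library was 15.7 times the higher caNIK library. The log2 fold change was -4.80 ± 0.43 (SE; edgeR adjusted p = 0.000798), a 27.8-fold lower level in caNIK. Without control replicate 2 it was -4.03.

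Prtn3 encodes proteinase 3, a serine protease. It stood at 8.43 and 21.3 CPM in caNIK replicates 1 and 2, against 94.4 and 238 CPM in control replicates 1 and 2. In both groups replicate 2 was about as far above replicate 1 (2.53 times in caNIK and 2.52 times in control). The log2 fold change was -3.48 ± 0.57 (SE; edgeR adjusted p = 0.00763). It was -4.32 without caNIK replicate 2 and -2.66 without control replicate 2.

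Elane, which encodes neutrophil elastase, stood at 4.56 and 8.77 CPM in caNIK replicates 1 and 2, against 23.6 and 110 CPM in control. The control pair differed most for this gene, by 4.66 times, and the lower control library was 2.69 times the higher caNIK library. The log2 fold change was -3.32 ± 0.72 (SE; edgeR adjusted p = 0.0204). It was -4.06 without control replicate 1 and -1.82 without control replicate 2, and the call was lost without caNIK replicate 1 (adjusted p = 0.0753).

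Ctsg, which encodes cathepsin G, a chymotrypsin-like protease that human mast cells also make, did not pass. It had 61.9 and 39.7 CPM in caNIK replicates 1 and 2, against 81.6 and 226 CPM in control replicates 1 and 2. The groups did not overlap, but the lower control library was only 1.32 times the higher caNIK library. The log2 fold change was -1.60 ± 0.47 (SE; edgeR adjusted p = 0.0528). Among the primary genes only Ctsg was higher in caNIK replicate 1 than in caNIK replicate 2. Without control replicate 2 its log2 fold change was -0.68 (adjusted p = 0.11), and without control replicate 1 it passed at -2.17 (adjusted p = 3.37e-07).

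**Figure D2:**
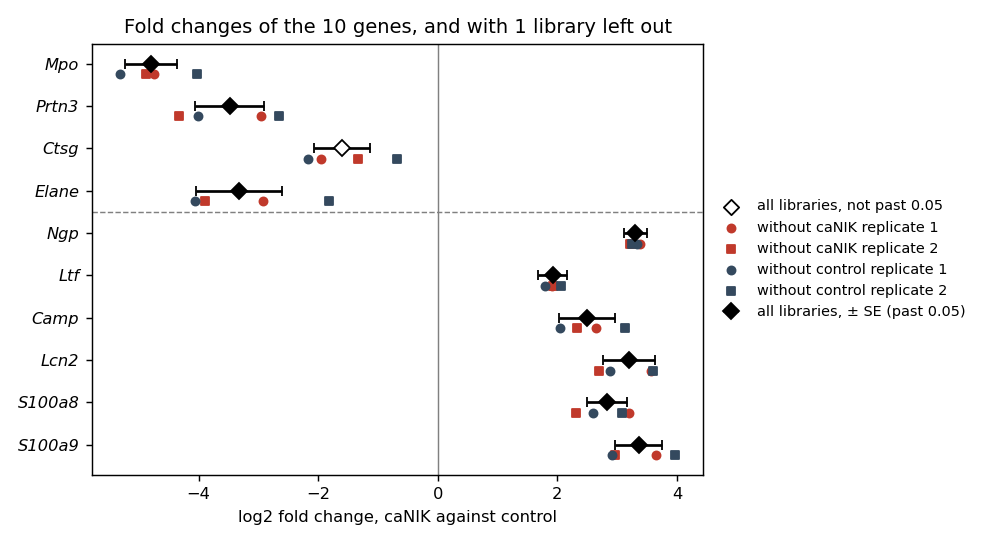
Log2 fold change of each gene, caNIK against control (horizontal axis), as diamonds with SE bars over all 4 libraries, filled where the adjusted p was under 0.05, and as small symbols with 1 library left out. The primary genes lie left of 0 and the later genes right of 0 in every such fit; leaving out control replicate 2 moves all 4 primary genes towards 0, with Elane at -1.82.

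Among the later genes, Ngp encodes neutrophilic granule protein, a secreted relative of the cathelicidins. It had 62.0 and 68.7 CPM in caNIK replicates 1 and 2, against 6.85 and 6.39 CPM in control. The libraries within each group were close. Its fold change on the log2 scale, 3.30 ± 0.19 (SE; edgeR adjusted p = 0.000201), had the smallest error of the members, and it lay between 3.21 and 3.38 over all alternative fits.

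Ltf encodes lactoferrin, the iron-binding protein that defines specific granules. It stood at 29.1 and 28.4 CPM in caNIK replicates 1 and 2 and at 6.90 and 8.22 CPM in control. The log2 fold change was 1.92 ± 0.24 (SE; edgeR adjusted p = 0.00266), the smallest among the later genes.

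Camp encodes the cathelicidin CRAMP, an antimicrobial peptide precursor. It was the least counted later gene, with 198 and 270 reads in caNIK against 26 and 66 reads in control. These were 10.6 and 13.02 CPM in caNIK and 1.35 and 2.81 CPM in control. The log2 fold change was 2.50 ± 0.47 (SE; edgeR adjusted p = 0.0117). It was 3.13 without control replicate 2.

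Lcn2 encodes lipocalin 2, which binds bacterial siderophores. It had 15.6 and 28.4 CPM in caNIK replicates 1 and 2, against 1.82 and 2.94 CPM in control. The lower caNIK library was 5.32 times the higher control library, and the log2 fold change was 3.20 ± 0.44 (SE; edgeR adjusted p = 0.00371).

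The calprotectin genes rose together. S100a8 had 52.4 and 94.9 CPM in caNIK replicates 1 and 2 and 8.71 and 12.0 CPM in control, with a fold change of 2.83 ± 0.33 on the log2 scale (SE; edgeR adjusted p = 0.00209). S100a9 had 68.9 and 109 CPM in caNIK replicates 1 and 2 and 5.65 and 11.6 CPM in control, with a fold change of 3.36 ± 0.39 on the log2 scale (SE; edgeR adjusted p = 0.00198). For both, replicate 2 was the higher library in each group. Without control replicate 2 the value for S100a9 was 3.97. The caNIK libraries held 76.0 and 87.2 S100a8 reads per 100 S100a9 reads, and the control libraries 154 and 104.

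The balance between the classes within a library does not depend on library scaling. The caNIK libraries held 175 and 252 reads of the 6 later genes per 100 reads of the 4 primary genes, against 2.53 and 1.43 in the control libraries. In total 2535 and 2817 primary reads and 4444 and 7099 later reads were counted in caNIK replicates 1 and 2, and 23856 and 72222 primary reads and 603 and 1032 later reads in control replicates 1 and 2. Mpo made up 45.0% and 48.6% of the primary reads in caNIK and 83.9% and 81.4% in control, so in control the pooled ratio rests largely on it.

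Because each primary gene lay wholly lower and each later gene wholly higher in caNIK, the ratios of single genes had to separate as well. In all 24 pairs the ratio of later to primary reads was higher in both caNIK libraries than in either control library. This adds no support of its own. The gap between the nearest libraries ran from 5.56 times (Ltf over Ctsg) to 206 times (S100a9 over Mpo). On the log2 scale the mean fold change of the primary genes minus that of the later genes was -6.15, and -5.48 without control replicate 2. Within a library, the mean log2 CPM of the primary genes minus that of the later genes was -0.71 and -0.74 in caNIK replicates 1 and 2, and 4.75 and 5.77 in control replicates 1 and 2. No test was made on these class scores, since the genes were chosen with earlier results known.

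**Figure D3:**
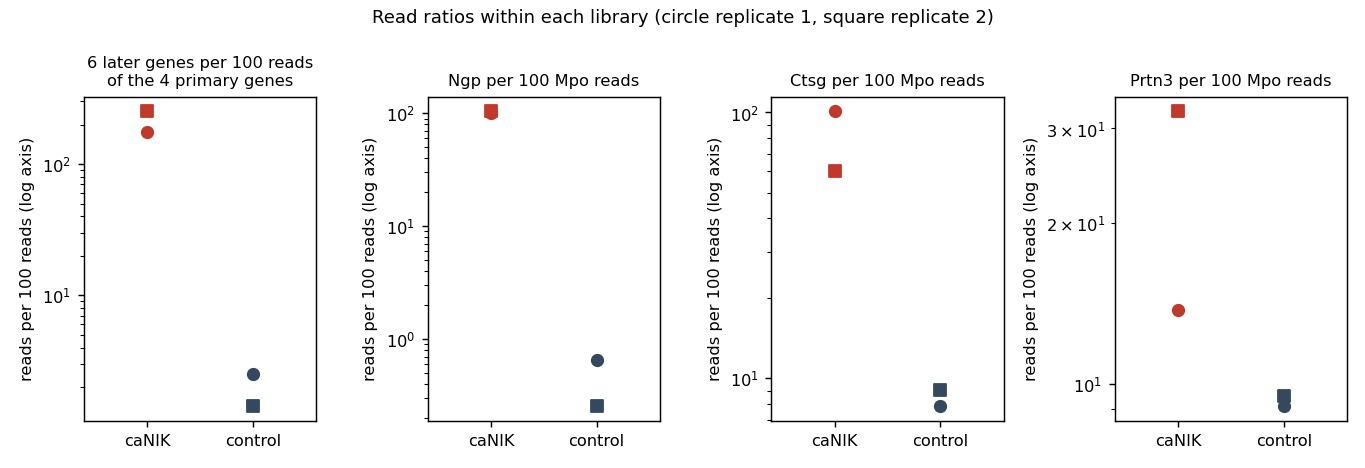
Reads of one gene or class per 100 reads of another within each library (vertical log axes, which differ between panels), caNIK at left and control at right, circles for replicate 1 and squares for replicate 2. Later reads per 100 primary reads are 175 and 252 in caNIK against 2.53 and 1.43 in control; Ctsg per 100 Mpo reads is 101 and 60.2 in caNIK against 7.86 and 9.02 in control.

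The proportions of the primary genes to each other also differed between the groups. Ctsg had 101 and 60.2 reads per 100 Mpo reads in caNIK replicates 1 and 2, against 7.86 and 9.02 in control. Prtn3 had 13.8 and 32.3 reads per 100 Mpo reads in caNIK, against 9.10 and 9.50 in control. Elane had 7.45 and 13.3 in caNIK and 2.27 and 4.40 in control. All 3 ratios were higher in both caNIK libraries than in either control library, and within caNIK replicate 1 was the higher library for Ctsg alone. Within the later genes, Ltf had 46.9 and 41.3 reads per 100 Ngp reads in caNIK against 101 and 129 in control. Camp had 17.1 and 18.9 reads per 100 Ngp reads in caNIK and 19.7 and 44.0 in control. Lcn2 per 100 Ngp reads overlapped between the groups, with 25.2 and 41.3 in caNIK and 26.5 and 46.0 in control.

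Few other genes of azurophil granules passed the threshold. Of 10 listed genes of azurophil granules and promyelocytes, 9 were tested, of which 2 were lower, 1 higher and 6 not past the threshold. Their median log2 fold change was -0.62. For comparison, 8.21% of all tested genes passed as lower and 13.8% as higher. Whether counts this small differ from those shares was not tested. Prss57, the neutrophil serine protease 4 that is stored with elastase, fell by 1.25 on the log2 scale (8.22 and 5.69 CPM in caNIK against 13.6 and 19.5 CPM in control; edgeR adjusted p = 0.0423). Gusb, the lysosomal beta-glucuronidase, fell by 0.89 (adjusted p = 0.00854). Srgn encodes serglycin, the proteoglycan core that holds granule proteases in many blood cells, and it rose, with 486 and 528 CPM in caNIK against 347 and 336 CPM in control (log2 fold change 0.57 ± 0.14, SE; adjusted p = 0.0281). Ctsc, whose product cathepsin C activates the granule serine proteases, had 52.9 and 69.2 CPM in caNIK and 51.4 and 49.6 CPM in control and did not pass (adjusted p = 0.334). Ms4a3, a gene of granulocyte-monocyte progenitors, had 3.92 and 8.82 CPM in caNIK and 6.59 and 27.9 CPM in control, and the groups overlapped. It was called lower without control replicate 1 (log2 fold change -2.15) and was at -0.04 without control replicate 2. The number of these genes called lower was 4 without caNIK replicate 1, 1 without caNIK replicate 2, 5 without control replicate 1 and 1 without control replicate 2, and Gusb was among them each time. Srgn was not called higher without control replicate 1 or without control replicate 2.

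Other genes listed with specific and gelatinase granules were mostly higher in caNIK. The list is not confined to granule contents: it holds Padi4, which was lower, and the stefin genes Stfa1, Stfa2 and Stfa3, which were higher. Across all tested genes, 13.8% were higher and 8.21% lower. Of 27 listed genes, 24 were tested, of which 14 were higher, 2 lower and 8 not past, and their median log2 fold change was 2.25. The number called higher was 10 without caNIK replicate 2 and 17 without control replicate 2, where the median was 3.19. Fpr2, a formyl peptide receptor stored in granule membranes, had 62 and 203 reads in caNIK against 0 and 4 reads in control (log2 fold change 6.08 ± 1.08, SE; edgeR adjusted p = 0.00983). Cybb, the large subunit of the NADPH oxidase flavocytochrome, stood at 128 and 84.7 CPM in caNIK against 3.53 and 6.14 CPM in control. Its partner Cyba stood at 210 and 248 CPM in caNIK and 67.4 and 69.6 CPM in control. Their log2 fold changes were 4.45 ± 0.34 and 1.74 ± 0.16 (SE). Both genes are also used by macrophages and other blood cells. Olfm4, a specific granule glycoprotein of a subset of neutrophils, had 83 and 124 reads in caNIK and 1 and 11 reads in control (log2 fold change 4.24 ± 0.86, SE; adjusted p = 0.0158). Without caNIK replicate 2 the calls of both Fpr2 (adjusted p = 0.0595) and Olfm4 (adjusted p = 0.0633) were lost. Without control replicate 2 the log2 fold change of Olfm4 was 6.49, and Fpr2 had 0 reads in the control library left.

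The chitinase-like gene Chil3 and the surface gene Cd177, named after their values were seen, rose by 4.12 ± 0.48 and 3.58 ± 0.51 on the log2 scale (SE; adjusted p = 0.00201 and 0.00437). The stefin genes Stfa1, Stfa2 and Stfa3 and the lysozyme genes Lyz1 and Lyz2 have near-identical copies, so their reads may be divided between copies. The gelatinase gene Mmp9 had 3.76 and 11.6 CPM in caNIK and 2.13 and 3.92 CPM in control, and its groups overlapped. It was called higher without caNIK replicate 1 (log2 fold change 1.94). The listed genes that fell were Padi4, a nuclear enzyme that citrullinates histones rather than a granule content, and Anxa1, a protein of gelatinase granules and many other cells. Padi4 stood at 2.74 and 2.75 CPM in caNIK against 25.3 and 22.6 CPM in control (log2 fold change -3.12 ± 0.28, SE), and Anxa1 at 33.8 and 29.7 CPM in caNIK against 82.9 and 93.9 CPM in control.

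Genes that regulate granulocyte formation were more often lower than higher. Of 14 listed genes, 13 were tested, of which 5 were lower, 1 higher and 7 not past, with a median log2 fold change of -0.59. Among all tested genes the shares were 8.21% lower and 13.8% higher. Csf3r, the receptor for G-CSF, stood at 8.001 and 12.5 CPM in caNIK against 79.7 and 99.3 CPM in control (log2 fold change -3.12 ± 0.26, SE; edgeR adjusted p = 0.000681). Cebpa, the factor that opens the granulocyte-monocyte pathway, had 14.6 and 22.4 CPM in caNIK against 38.8 and 75.6 CPM in control (-1.63 ± 0.36; adjusted p = 0.0217). Gfi1, a repressor needed for neutrophil formation, had 26.3 and 9.74 CPM in caNIK against 46.1 and 57.1 CPM in control (-1.52 ± 0.43; adjusted p = 0.0488). Spi1, which encodes PU.1, and Runx1 also fell, by 0.59 and 0.80 on the log2 scale. The call of Spi1 was lost without caNIK replicate 2, without control replicate 1 and without control replicate 2, and that of Cebpa without caNIK replicate 1. Gfi1 was at -2.40 without caNIK replicate 1. The listed gene that rose was Rara, a retinoic acid receptor gene (0.86 ± 0.17; adjusted p = 0.0149).

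Cebpe, the factor required for specific granule genes, had 1.61 and 3.04 CPM in caNIK and 2.07 and 13.3 CPM in control. Its groups overlapped and it did not pass (log2 fold change -1.73 ± 0.85, SE; edgeR adjusted p = 0.2). Control replicate 2 decided its sign: without it the log2 fold change was 0.17, and without control replicate 1 it was -2.53 and Cebpe was called lower (adjusted p = 0.00137). Cebpb had 19.0 and 26.9 CPM in caNIK and 16.8 and 21.4 CPM in control, and Cebpd 1.99 and 4.15 CPM in caNIK and 4.77 and 6.73 CPM in control, and neither passed. Without control replicate 2, 3 regulators were lower (Cebpa, Gfi1 and Csf3r), the median was -0.18, and the regulator called higher was Gfi1b in place of Rara.

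**Figure D4:**
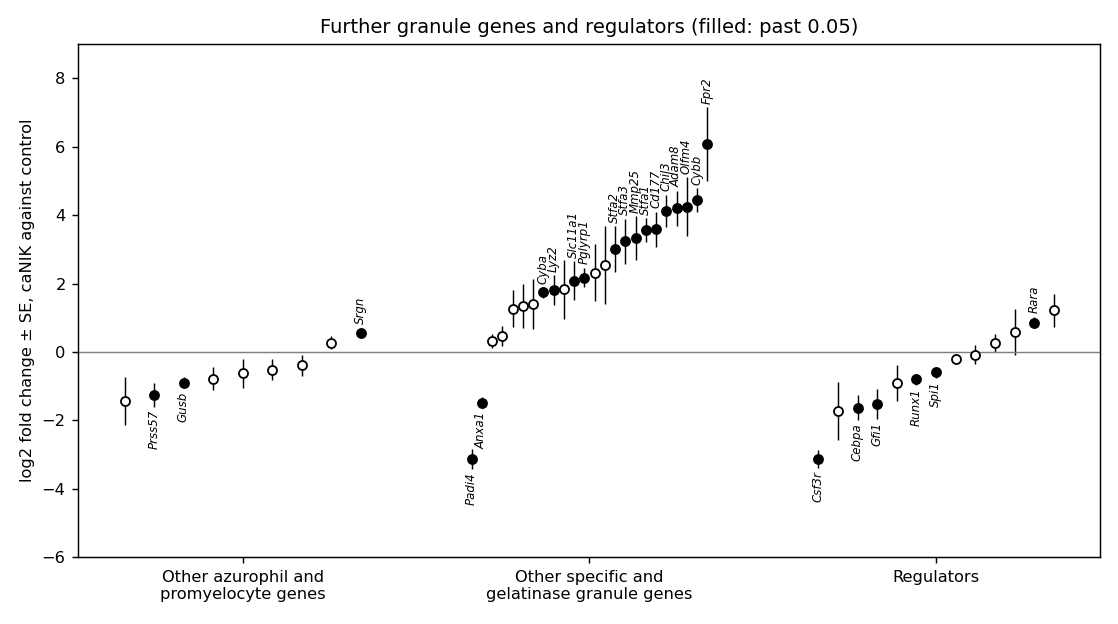
Log2 fold change ± SE (vertical axis, caNIK against control) of each tested gene in the lists of other azurophil and promyelocyte genes, other specific and gelatinase granule genes, and regulators, ordered by value within each list, with genes past the threshold filled and named. The middle list has 14 genes higher and 2 lower, and the regulators have 5 lower and 1 higher.

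Among the genomic neighbours of the members, Lpo and Mcpt8 were higher in caNIK beside primary genes that were lower or not past. In the RefSeq gene order of GRCm38.p6, Prtn3 and Elane are direct neighbours, as are S100a8 and S100a9. Of 15 other protein-coding genes next to a member and present in the tables, 11 were tested, of which 3 were higher, 0 lower and 8 not past. Over all tested genes, 13.8% were higher and 8.21% lower. Besides Lpo and Mcpt8, the neighbour called higher was 1110008P14Rik, next to Lcn2 and with the same sign as Lcn2 (log2 fold change 1.57; edgeR adjusted p = 0.0281). Lpo, which encodes lactoperoxidase, a peroxidase of the same family as the product of its neighbour Mpo, had 255 and 570 reads in caNIK against 1 and 16 reads in control. This was 13.7 and 27.5 CPM in caNIK and 0.0519 and 0.682 CPM in control (log2 fold change 5.72 ± 0.83, SE; edgeR adjusted p = 0.00473), opposite in sign to Mpo. Mcpt8, a basophil protease gene next to Ctsg, stood at 103 and 44.0 CPM in caNIK and 5.55 and 18.4 CPM in control (2.62 ± 0.61; adjusted p = 0.0257). Its call was lost without caNIK replicate 1 (1.88, adjusted p = 0.0774), and its log2 fold change was 1.98 without control replicate 1 and 3.73 without control replicate 2. Lpo passed each time, between 4.89 without control replicate 1 and 8.47 without control replicate 2, where 1 read was left in control. Cdc25a, next to Camp, had 91.8 and 99.6 CPM in caNIK and 95.0 and 121 CPM in control and did not pass. Cfd, next to Elane, had 0 reads in both caNIK libraries and 0 and 1 in control and was not tested.

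The genes nearest to Mpo in their pattern over the 4 libraries were Mc5r, Gpc3, Il17re, Col10a1 and Crispld1. Likeness was the Euclidean distance between log2 CPM centred on each gene, and these lay 1.05 to 1.17 from Mpo among 10757 candidates with at least 5 CPM in the higher group. All 5 were below 1 CPM in both caNIK libraries, as Mc5r with 0.537 and 0.289 CPM in caNIK and 16.5 and 20.8 CPM in control. The genes nearest to Ngp were Fam174b, Pirb, Tmem158, Gbp5 and Csf2rb2, at distances of 0.14 to 0.23. Among these Pirb stood at 34.7 and 33.99 CPM in caNIK against 3.22 and 3.24 CPM in control. With 4 libraries in 2 groups, any gene with a like fold change and small spread scores as near.

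Map3k14, the gene of NIK, was higher in the libraries labelled caNIK, with 177 and 192 CPM in caNIK against 30.2 and 25.1 CPM in control. Library totals lay between 18574452 and 23162766 counts. Kit, a marker of progenitors, had 558 and 506 CPM in caNIK and 610 and 613 CPM in control, and all 12 listed stem and progenitor markers had reads in every library. Of these 12, 2 were higher and 4 lower, with sums of 1505 and 1122 CPM in caNIK against 2577 and 2330 CPM in control. The most abundant in control was Cd34, at 143 and 84.1 CPM in caNIK and 793 and 642 CPM in control. Separate animals per library are not stated. The p-values rest on the spread between these 2 libraries a group, which may be technical. Each gene's spread was also drawn towards that of the other tested genes. The p-values moved with the filter too: with at least 1 read in any library, the edgeR adjusted p of Mpo was 9.23e-10, against 0.000798. In bulk RNA, fewer cells of a type and less RNA per cell cannot be told apart.

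Among marker genes of other blood cells, the mast cell and basophil list and the erythroid list held the most calls. Over all tested genes, 13.8% passed as higher and 8.21% as lower in caNIK. The monocyte and eosinophil counts given below lay near these shares. Of 12 mast cell and basophil genes, 10 were higher and 0 lower, with a summed level of 2868 and 1408 CPM in caNIK against 86.6 and 144 CPM in control. The most abundant was the tryptase gene Tpsb2, at 704 and 357 CPM in caNIK and 7.78 and 4.39 CPM in control. In control the most abundant was Hdc, the histidine decarboxylase gene, at 369 and 138 CPM in caNIK and 12.03 and 47.1 CPM in control, and its call was lost without caNIK replicate 1. In the summed level, as for Ctsg, caNIK replicate 1 was above caNIK replicate 2. The stem and progenitor, eosinophil, B cell and T cell sums had that order too, so it was not particular to mast cell genes. The erythroid, monocyte and mature neutrophil sums had the reverse order. A mast cell part in Ctsg was not tested. In the mast cell and basophil list the spread between the caNIK libraries also moved the calls. Without caNIK replicate 1, 6 of these genes were called higher. Of 12 erythroid genes, 8 were higher and 0 lower (3803 and 5962 CPM in caNIK, 710 and 1396 CPM in control), and 5 were higher without caNIK replicate 2. The most abundant was the carbonic anhydrase gene Car2, at 1860 and 2604 CPM in caNIK and 318 and 441 CPM in control. For 11 mature neutrophil genes in the tables, 1 was higher (Fpr2) and 3 were lower (Csf3r, Trem1 and Clec4e), with a median log2 fold change of 1.22 and 7 of 11 values above 0. Their sums ran the other way, at 35.4 and 61.4 CPM in caNIK against 120 and 142 CPM in control, and most of the control sum was Csf3r. Without Csf3r the sums overlapped, at 27.4 and 48.9 CPM in caNIK and 40.3 and 42.8 CPM in control. Trem1 stayed past the threshold only without control replicate 1, and Clec4e passed each time, between -6.70 without caNIK replicate 2 and -3.38 without caNIK replicate 1. The number called higher was 2 without caNIK replicate 1, 0 without caNIK replicate 2 and 3 without control replicate 2. That list shares Mmp8, Mmp9, Retnlg, Fpr1 and Fpr2 with the specific and gelatinase granule genes and Csf3r with the regulators. Cxcr2, the chemokine receptor of mature neutrophils, had 12.4 and 11.3 CPM in caNIK and 10.4 and 13.9 CPM in control, and Il1b was at or below 1.64 CPM in all 4 libraries.

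Of 11 tested monocyte genes, 2 were higher (Cx3cr1 and Ms4a6c) and 0 lower, with sums of 302 and 318 CPM in caNIK and 142 and 252 CPM in control. Ms4a6c alone was called higher without caNIK replicate 2, and 4 genes without control replicate 2. Cx3cr1 was also lost without caNIK replicate 1, and 1 gene (F13a1) was lower without control replicate 1. The most abundant was Ms4a6c in caNIK (84.7 and 74.0 CPM, against 23.8 and 20.6 CPM in control) and Irf8 in control (78.5 and 61.8 CPM in caNIK, 53.7 and 94.2 CPM in control). Of 10 eosinophil genes, 7 were tested, of which 1 was higher (Siglec5) and 1 lower (Epx), with sums of 151 and 102 CPM in caNIK against 74.0 and 515 CPM in control. The eosinophil sum thus stood apart in control replicate 2, the library that was also highest for all 4 primary genes. Control replicate 2 was also above control replicate 1 in the erythroid, monocyte, mast cell and basophil, and mature neutrophil sums. It was below in the stem and progenitor, B cell and T cell sums. Prg2 and Epx, at 357 and 112 CPM in control replicate 2, held most of the sum of the 10 eosinophil genes. Without caNIK replicate 1, caNIK replicate 2 or control replicate 1, all 10 eosinophil genes were tested, against 7 over all libraries. Counts from those fits are therefore not over the same genes. Of these genes 0 were lower without caNIK replicate 1, 0 without caNIK replicate 2 and 4 without control replicate 1. The number higher was 0 without caNIK replicate 1, where Siglec5 was lost, and 2 without caNIK replicate 2 or without control replicate 2. DESeq2 called 1 higher and 1 lower, and limma-voom called 0 in either direction. Of 10 B cell genes 4 were lower and 0 higher, 2 were lower without caNIK replicate 2, and 1 (Ms4a1) was higher without control replicate 1. The 4 called lower over all libraries were Pax5, Ebf1, Vpreb1 and Igll1, with log2 fold changes of -3.00, -2.26, -6.23 and -4.08. The most abundant B cell gene was Cd79b, at 50.2 and 38.8 CPM in caNIK and 34.3 and 27.1 CPM in control. Cd79b did not pass (edgeR adjusted p = 0.129). The B cell sums were 84.3 and 50.2 CPM in caNIK and 113 and 69.9 CPM in control. Of 10 T cell genes 0 passed with edgeR, where 2 had an unadjusted p under 0.05, while DESeq2 called 2 higher and limma-voom 1. Without caNIK replicate 2, control replicate 1 or control replicate 2, edgeR called 2 to 3 T cell genes higher. The most abundant were Cd4 in caNIK (74.5 and 28.5 CPM, against 20.7 and 16.2 CPM in control) and Lck in control (64.7 and 24.0 CPM in caNIK, 52.8 and 30.4 CPM in control). The T cell sums were 244 and 105 CPM in caNIK and 163 and 73.2 CPM in control. The part of these cell types in the values of the members was not tested.

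**Figure D5:**
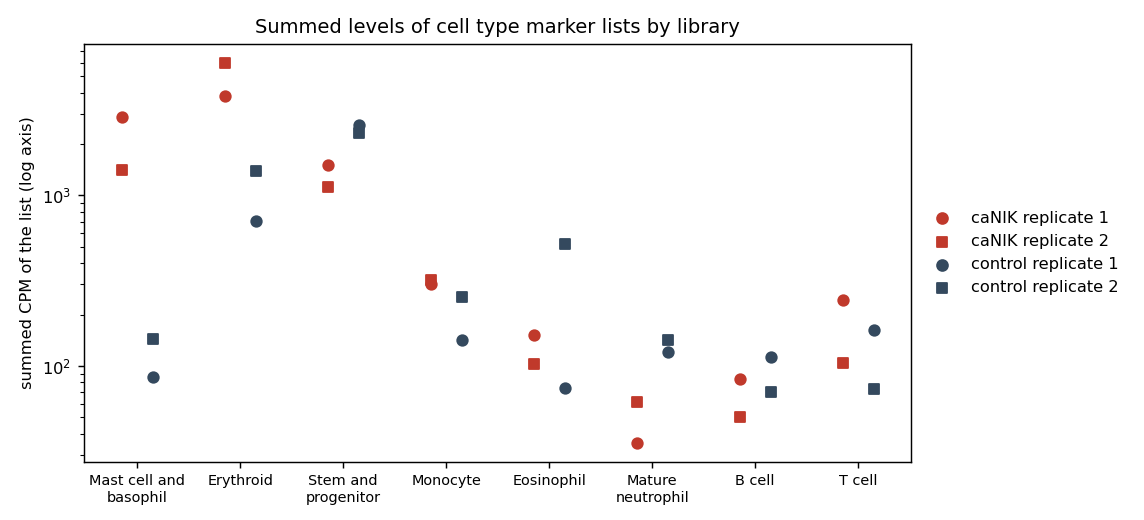
Summed TMM-normalised CPM (vertical log axis) of each cell type marker list in each library, caNIK left of control, circles for replicate 1 and squares for replicate 2. Mast cell and basophil genes sum to 2868 and 1408 CPM in caNIK against 86.6 and 144 CPM in control, and the mature neutrophil list to 35.4 and 61.4 CPM in caNIK against 120 and 142 CPM in control, of which Csf3r holds 79.7 and 99.3 CPM in control; without Csf3r the sums overlap.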

How the data were processed

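For each of the 4 libraries the authors deposited raw counts by gene symbol, per the file headers, and the values were whole numbers. Per the submitters' processing notes, mm9, TopHat2 2.1.0, featureCounts 1.5.0, DESeq2 1.10.1 and FastQC were involved, without stated roles. Annotation, strand setting and handling of multi-mapping reads were not given in the sources used here. Overlapping or antisense genes and near-identical copies (Stfa, Lyz, Ear, tryptase and Pirb families, Csf2rb2) may therefore share counts.

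The test was run with edgeR 4.0.16 (R 4.3.3): filterByExpr, TMM factors and a two-sided quasi-likelihood F test with group as the only term, Benjamini-Hochberg adjusted over 14191 genes. SE was taken from the F statistic. CPM are TMM-normalised. The procedure was run on counts simulated from its own fitted spread, which cannot show its error rate in these data. Replicates differed beyond sampling noise: chi-square over degrees of freedom was 42.4 in caNIK and 23.5 in control. Alternatives used DESeq2 1.42.0, limma-voom (limma 3.58.1), other scalings and filters, a replicate block, and each library left out. Counts over the lists and values of their genes without each library, and the neutrophil marker sum without Csf3r, were added after seeing the data.

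The members and lists were chosen with earlier results of these data known. Besides the members, named genes are, per list, up to 3 per direction past the threshold with the largest fold change and at least 1 CPM, the most abundant marker, and the 5 genes nearest to Mpo and Ngp. Ctsc, Ms4a3, Cyba, Chil3, Cd177, Mmp9, Spi1, Runx1, Cebpe, Cebpb, Cebpd, Lyz and Stfa genes, Gfi1b, Trem1, Clec4e, Cx3cr1, F13a1, Ms4a1, Siglec5, Il1b, Epx and the neighbours were named after their values were seen. So were Pax5, Ebf1, Vpreb1 and Igll1. Of the listed symbols, Chi3l3 was matched as Chil3 and Ly6g is not analysed here.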

Additional observations from a re-analysis of the deposited data

How the results depend on the processing

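Over 11 alternative fits, all 10 members kept their direction, and 104 of 110 member values kept their side of the threshold. Ctsg passed with DESeq2 (adjusted p = 0.00131), with the filter of at least 1 read in any library (0.00107), with the replicate block (0.0422) and without control replicate 1 (3.37e-07). Over all its alternatives its adjusted p ranged from 3.37e-07 to 0.165. Elane did not pass with limma-voom (0.0878) or without caNIK replicate 1 (0.0753), in a range of 1.58e-11 to 0.0878. The causes were not tested. The 6 later genes passed in every fit, and 2 to 4 members were lower. With each library left out, the mean log2 fold change of primary minus later genes ranged from -6.49 to -5.48 (the value without control replicate 2), and 2604 to 3174 genes passed in all. In these fits the group with 1 library is assumed to vary like the other.

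Replicate numbers give no pairing in the labels. The deviations of same-numbered libraries correlated at 0.21 over 14191 genes. With the replicate block 4260 genes passed, against 3129 without it, and 4 members were lower and 6 higher. With 2 libraries in each group, 1 library can decide a call, as for Elane and Ctsg.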

Other observations

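Granule genes of eosinophils also varied in these libraries. Epx, the eosinophil peroxidase of the same family as myeloperoxidase, stood at 1.29 and 3.09 CPM in caNIK replicates 1 and 2, against 10.9 and 112 CPM in control replicates 1 and 2. It passed as lower in edgeR's test (log2 fold change -4.80 ± 1.098, SE; adjusted p = 0.0238), but not without caNIK replicate 1 or without caNIK replicate 2. Its log2 fold change was -5.68 without control replicate 1 and -2.31 without control replicate 2. Prg2, the major basic protein gene, had 77.9 and 59.6 CPM in caNIK and 47.3 and 357 CPM in control. Its groups overlapped and it did not pass (adjusted p = 0.208), but it was called lower without control replicate 1 (-2.40) and stood at 0.54 on the log2 scale without control replicate 2.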
